A study of Mus musculus with 4 samples.

Results

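The semaphorins, plexins and neuropilins are 33 genes of the 28693 in the deposited matrices. They were taken by symbol as the 20 semaphorins of classes 3 to 7, the 9 plexins of types A to D, the 2 plexin domain containing genes *Plxdc1* and *Plxdc2*, and the neuropilins *Nrp1* and *Nrp2*. The rule uses no measured value, but it was chosen with earlier results of these data known. Single-cell 3' UMI counts, in which each captured transcript is counted once by its molecular barcode, were available for live sorted cells from the mammary glands of 4 mice. Each library pooled several pairs of glands of 1 mouse. The WT mice (replicates 1 and 2) carried floxed *Lats1* and *Lats2* alleles and a heterozygous loxP-stop-loxP EYFP reporter but no Cre. The LATS1/2 KO mice carried the same floxed alleles with Krt8-CreERT2, a tamoxifen-inducible recombinase driven by the promoter of a luminal keratin, and the reporter was heterozygous in replicate 1 and homozygous in replicate 2. All mice received 5 daily doses of 2 mg tamoxifen, glands were taken 7 days after the last dose, and the mice were nulliparous adults of 3 to 10 months. EYFP was detected in 17.4% and 23.0% of the luminal cells of the LATS1/2 KO libraries, against 0.303% and 0.419% in the WT libraries, and a cell without an EYFP UMI is not shown to be unrecombined.

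Semaphorins are secreted or membrane-bound guidance cues, and plexins are the receptors that carry their signal to small GTPases and the cytoskeleton. Most secreted class 3 semaphorins need a neuropilin as co-receptor to engage a plexin, whereas *Sema3e* binds plexin D1 directly, and neuropilins also bind VEGF. In the mammary gland and in tumours these molecules are known for roles in duct growth, vessel patterning and the movement of stromal and immune cells.

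After filtering, 3515 to 5272 cells per library with 38792520 to 46810771 UMIs were kept, and each cell was placed in a lineage by marker genes. Tests were run where every library held at least 20 cells, which were luminal ER- (9622 cells), luminal ER+ (2805), basal (976), fibroblast (1294) and endothelial (530) cells. The WT libraries held only 58 and 23 fibroblasts and 41 and 35 endothelial cells. Lymphocytes, macrophages and perivascular cells were described without a test in these gates. Luminal ER-, luminal ER+, fibroblast, endothelial, lymphocyte, macrophage and perivascular markers each summed highest in their own gate in all 4 libraries. The same markers set the gates, so this is no independent check. The summed basal markers in luminal ER- cells rose from 60.8 and 47.7 CPM (the UMIs of a gene scaled to a common total over the summed cells) in WT to 1459 and 1063 CPM in LATS1/2 KO libraries. Basal markers also summed higher in the perivascular than in the basal gate of WT replicate 1 (14799 against 10825 CPM) and LATS1/2 KO replicate 2 (13843 against 10455 CPM). In all, 1285 epithelial cells, 569 and 521 of them in the LATS1/2 KO libraries, carried no clear lineage. The 2 groups also filled different clusters of the same lineage. Clusters 0, 4 and 16 held 97.1% and 96.5% of WT luminal ER- cells, and clusters 1, 3 and 8 held 94.4% and 96.1% of those in LATS1/2 KO. Cluster 2 held 92.2% and 94.6% of WT luminal ER+ cells, and clusters 10 and 14 held 85.5% and 73.7% of those in LATS1/2 KO. Basal cells lay in cluster 13 in WT (98.3% and 98.7%) and in cluster 6 in LATS1/2 KO (95.7% and 97.5%). The part of these shifts in the epithelial results was not tested. In luminal ER- cells *Lats1* read 25.6 and 25.5 CPM in WT and 14.9 and 17.6 CPM in LATS1/2 KO, while *Lats2* read 15.5 and 17.0 CPM and then 28.4 and 30.0 CPM. The 3' tags need not lie in the floxed exons, so they do not check the deletion. The libraries shared 51 barcodes, 43 of them among the kept cells. The share of free RNA, estimated from genes a lineage should lack, was 0 to 18.9% by lineage and library.

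The family was spread over the gland by lineage, and 22 of the 33 members reached a mean of 20 CPM in at least 1 lineage. Endothelial cells held the highest level of 11 of these 22, which were *Nrp1*, *Nrp2*, *Plxna2*, *Plxna4*, *Plxnd1*, *Sema3f*, *Sema3g*, *Sema4c*, *Sema6a*, *Sema6b* and *Sema7a*. Fibroblasts led for *Plxdc2* and *Sema3a*, luminal ER+ cells, through a minority of them in the LATS1/2 KO libraries, for *Sema3c* and *Sema3e*, basal cells for *Plxnb1*, lymphocytes for *Sema4a* and *Sema4d*, and perivascular cells, of which only the 2 LATS1/2 KO libraries held 20 or more, for *Plxna1*, *Plxnb2*, *Sema5a* and *Sema6d*. All 22 kept their leading lineage after free RNA was subtracted, and no test between lineages was run. The remaining 11 stayed at a mean of 0.0519 CPM (*Plxnb3*) to 19.7 CPM (*Sema4b*) in their leading lineage.

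**Figure D1:**
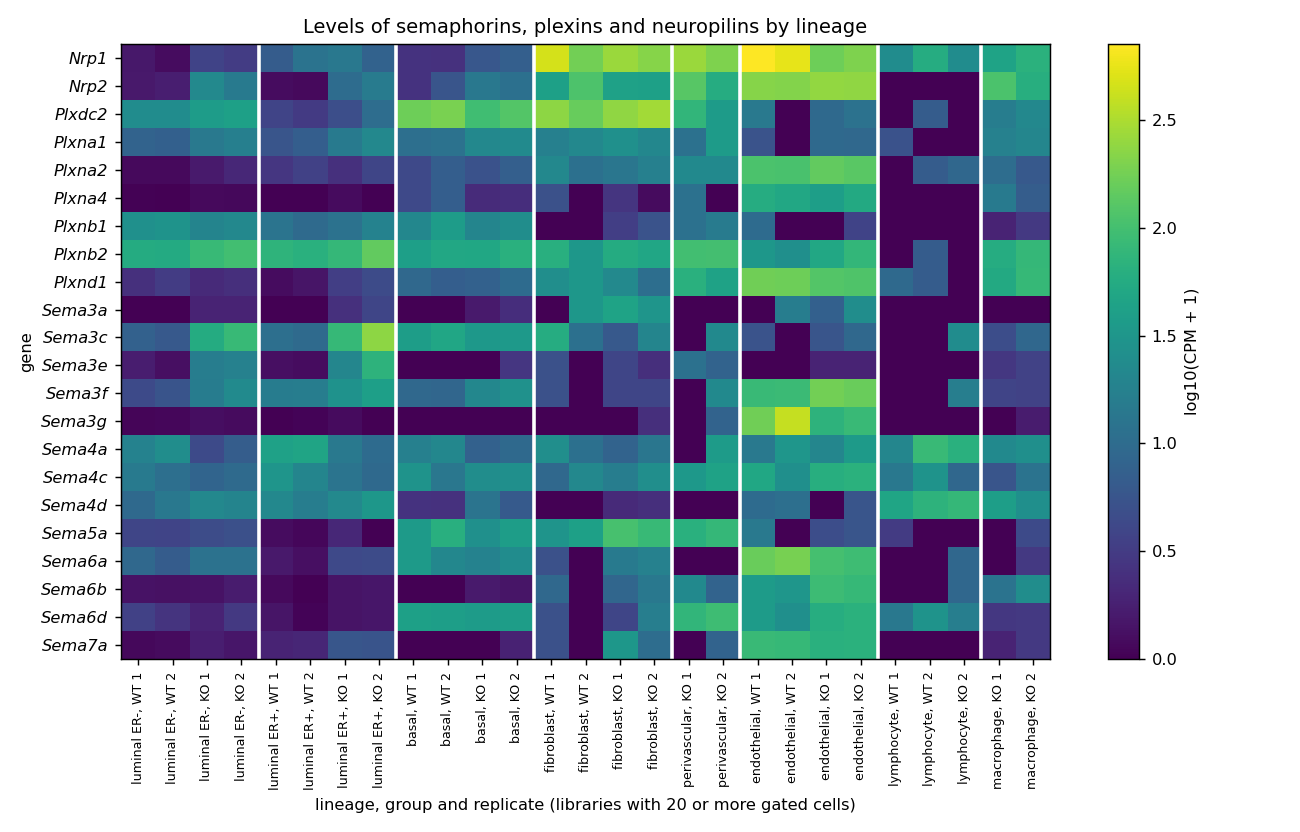
Heat map of log10(CPM + 1) of the 22 members that reached a mean of 20 CPM in a lineage, 1 column per library with 20 or more gated cells. *Nrp1* is brightest in the WT endothelial libraries, at 712 and 564 CPM, and *Sema3c* and *Sema3e* brighten in the LATS1/2 KO luminal columns.

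On the source side, the secreted class 3 ligands *Sema3a*, *Sema3c*, *Sema3e* and *Sema3f* rose in luminal ER- cells, and the latter 3 also in luminal ER+ cells, where *Sema3a* did not pass the low-count filter. Of 24 members that passed the low-count filter in luminal ER- cells, 12 rose and 6 fell in LATS1/2 KO against WT (edgeR quasi-likelihood test, Benjamini-Hochberg adjusted p under 0.05). This stands against 60.2% of the 13629 genes tested in these cells, so most genes of any kind were called. After free RNA was subtracted, 9 of 21 members rose and 7 fell in these cells, against 59.1% of 13255 genes. *Nrp1*, *Plxna2* and *Sema7a* were then no longer called, and *Sema6d* was called as lower. In luminal ER+ cells 8 of 19 rose and 3 fell, against 31.5% of 12346 genes. The median log2 fold change of the tested members was 0.37 in luminal ER- and 0.61 in luminal ER+ cells, where the medians of all genes were 0.01 and -0.0017. Fold changes carry a further scaling between libraries (TMM) that the CPM lack. A fold change can therefore differ from the ratio of the CPM printed beside it. The tests were run on sums, which do not separate more cells that hold a transcript from more transcript per cell. The share of cells that held each transcript was not counted.

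*Sema3c*, a secreted ligand that signals through neuropilins with plexin A or D receptors, read 6.71 and 5.20 CPM in WT and 55.2 and 82.5 CPM in LATS1/2 KO luminal ER- cells. In luminal ER+ cells it read 9.98 and 8.59 CPM in WT and 79.5 and 231 CPM in LATS1/2 KO. Both LATS1/2 KO libraries lay above both WT libraries in each lineage, and within luminal ER+ cells replicate 2 was far above replicate 1. The luminal ER+ level was carried by few cells. Those of clusters 8 and 14, 59 of 509 and 59 of 190 cells, held 74.5% and 90.4% of the *Sema3c* UMIs of the LATS1/2 KO replicates at 432 and 671 CPM, while those of cluster 10, 399 and 113 cells, read 22.7 and 29.3 CPM. Over all libraries, cluster 8 held 371 cells gated luminal ER-, 55 luminal ER+ and 215 epithelial without a clear lineage. Cluster 14 held 22, 63 and 196 in that order. Whether those 59 and 59 cells are luminal ER+ beyond the gate was not tested. The log2 fold change was 3.18 ± 0.22 (SE, n = 2 per group; adjusted p = 4.84e-05) in luminal ER- and 3.94 ± 0.49 (adjusted p = 0.00368) in luminal ER+ cells. Basal cells, by contrast, held *Sema3c* already in WT, at 37.9 and 47.9 CPM, with 32.6 and 32.7 CPM in LATS1/2 KO, a difference that did not pass (log2 fold change -0.51 ± 0.25, adjusted p = 0.129). The basal effect differed from the luminal ER- effect by -3.56 ± 0.31 on the log2 scale (interaction term, adjusted p = 2.71e-20). So small a p-value rests on a spread pooled over genes and not on these mice alone.

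*Sema3e*, the ligand of plexin D1, was close to absent from WT luminal cells. It read 0.682 and 0.298 CPM in WT and 15.3 and 17.1 CPM in LATS1/2 KO luminal ER- cells, a log2 fold change of 4.66 ± 0.29 (adjusted p = 3.22e-05). In luminal ER+ cells it read 0.324 and 0.253 CPM in WT and 19.4 and 68.7 CPM in LATS1/2 KO (log2 fold change 7.03 ± 0.78, adjusted p = 0.00261). The groups did not overlap in either lineage, and the difference between the lineages' effects did not pass (adjusted p = 0.122). The same 59 and 59 cells gated luminal ER+ held 94.4% and 98.6% of the *Sema3e* UMIs of the LATS1/2 KO luminal ER+ gate. They lay in clusters 8 and 14, most of whose cells were not gated luminal ER+. The luminal ER+ cells of cluster 10 gave only 4 and 1 UMIs of it. Basal cells gave 0, 0, 0 and 4 *Sema3e* UMIs in the WT and LATS1/2 KO libraries.

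*Sema3c* lies on chromosome 5 (17574281 to 17730268, plus strand, GENCODE M21 on GRCm38), on the same strand of the same chromosome as *Sema3e* (14025276 to 14256689), *Sema3a* (13125414 to 13602565) and *Sema3d* (12383385 to 12588948). *Nrp2*, the co-receptor that moved with the ligands in luminal cells, lies on chromosome 1 (62703285 to 62818695, plus strand). The bases before the starts of *Sema3e* and *Nrp2* are shown because these genes rose together from a near-zero level and yet start in unlike sequence (RefSeq, GRCm38.p6, plus strand, 5′ to 3′, capitals on each CG dinucleotide, and the *Nrp2* run stopped at the first base that GENCODE places in an exon).
Sema3e, chr5:14025026-14025275: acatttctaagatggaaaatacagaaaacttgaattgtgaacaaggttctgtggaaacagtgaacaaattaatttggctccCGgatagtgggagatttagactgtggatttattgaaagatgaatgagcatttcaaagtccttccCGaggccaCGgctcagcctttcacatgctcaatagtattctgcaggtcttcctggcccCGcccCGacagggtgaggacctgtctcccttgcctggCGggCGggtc
Nrp2, chr1:62703067-62703284: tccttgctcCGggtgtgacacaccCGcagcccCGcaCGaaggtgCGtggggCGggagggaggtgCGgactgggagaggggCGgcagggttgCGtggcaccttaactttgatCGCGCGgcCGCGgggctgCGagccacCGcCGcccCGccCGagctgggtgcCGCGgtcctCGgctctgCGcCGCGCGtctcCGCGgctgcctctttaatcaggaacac
Over the full 250 bases before the RefSeq start, *Sema3e* holds 7 CG dinucleotides, near the median of 6 over the 32851 windows in the reference table, whereas *Nrp2* holds 32 and *Sema3c* 39, more than 95.4% and 98.4% of windows. The *Sema3c* stretch lies after the first base that GENCODE gives the gene, so it is not sequence upstream of the whole gene. Neither GGAATG, the core bound by TEAD factors, nor TGANTCA, an AP-1 site, occurs on either strand in these 3 stretches of 250 bases, which says nothing of either factor. Windows of 300 bases, from 250 before to 50 after the start, were listed for 26 of the 33 members. GGAATG was found in 3 of their 37 windows, against 14.7% of all windows, and TGANTCA in 3 of 37, against 7.81%. Of the genes described here, 1 window of *Sema4a* and those of *Plxnb1* and *Plxnd1* held GGAATG, which is not shown to be a bound site.

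Further secreted and membrane ligands rose with them. *Sema3f*, which signals through *Nrp2*, read 3.41 and 4.48 CPM in WT and 14.9 and 22.3 CPM in LATS1/2 KO luminal ER- cells (log2 fold change 1.90 ± 0.23, adjusted p = 0.000515). It was 14.7 and 15.0 CPM in WT and 27.6 and 39.6 CPM in LATS1/2 KO luminal ER+ cells (log2 fold change 1.06 ± 0.19, adjusted p = 0.0101), a smaller effect by -0.80 ± 0.22 (interaction term, adjusted p = 0.0288, and 0.104 without the mouse as a block). Among epithelial cells by cluster, *Sema3f* read 16.6 and 21.6 CPM in cluster 10, which held most LATS1/2 KO luminal ER+ cells. That was near the 13.7 and 14.5 CPM of WT cells in cluster 2. In LATS1/2 KO it read 79.8 and 85.4 CPM in cluster 8 and 45.3 and 77.6 CPM in cluster 14. *Sema3a*, the classical repulsive ligand of *Nrp1*, was listed at 0 UMIs in all WT luminal libraries and at 20 and 22 UMIs in LATS1/2 KO luminal ER- and 7 and 6 UMIs in luminal ER+ cells. Against a floor of 3 UMIs over the WT group, it was at least 15.7-fold higher in luminal ER- and at least 20.3-fold higher in luminal ER+ cells, though at only 0.934 and 0.902 CPM in the LATS1/2 KO luminal ER- libraries. It passed the test in luminal ER- cells (adjusted p = 0.00110) and was not tested in luminal ER+ cells. *Sema4f* was as sparse, with 1 and 1 UMIs in WT and 22 and 26 UMIs in LATS1/2 KO luminal ER- cells, a ratio of 26.9 with an exact counting interval of 7.05 to 228 and an adjusted p of 0.000690.

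The membrane-bound class 4 ligands *Sema4a*, *Sema4c* and *Sema4g* fell in luminal ER- cells. *Sema4a*, known from immune and vascular signalling, read 17.6 and 24.3 CPM in WT and 3.36 and 6.03 CPM in LATS1/2 KO luminal ER- cells. It read 42.4 and 45.4 CPM in WT and 13.1 and 8.90 CPM in LATS1/2 KO luminal ER+ cells. The groups lay apart in each lineage, and the change on the log2 scale was -2.48 ± 0.27 in luminal ER- (adjusted p = 0.000312) and -1.99 ± 0.20 in luminal ER+ cells (adjusted p = 0.00190). *Sema4c*, a plexin B2 ligand, fell in luminal ER- cells from 13.9 and 9.98 CPM to 7.29 and 8.77 CPM (log2 fold change -0.92 ± 0.20, adjusted p = 0.00644). In luminal ER+ cells it went from 29.8 and 19.0 CPM to 11.6 and 8.41 CPM (-1.30 ± 0.31, adjusted p = 0.0249), a call lost without LATS1/2 KO replicate 1 (adjusted p = 0.0652) or 2 (adjusted p = 0.1003). *Sema4g* fell in luminal ER- cells from 26 and 14 UMIs to 4 and 5 UMIs (-2.28 ± 0.48, adjusted p = 0.00539, and 0.0869 without WT replicate 1). *Sema4b* and *Sema4d* did not pass in either luminal lineage; *Sema4d*, the ligand of plexin B1, read 8.33 and 12.9 CPM in WT and 20.3 and 18.3 CPM in LATS1/2 KO luminal ER- cells (adjusted p = 0.0563).

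The other ligands changed less evenly. *Sema6a*, a transmembrane ligand of plexin A2 and A4, read 0.583 and 0.316 CPM in WT and 3.23 and 3.46 CPM in LATS1/2 KO luminal ER+ cells (log2 fold change 2.78 ± 0.52, adjusted p = 0.0120). That call was lost without LATS1/2 KO replicate 1 (adjusted p = 0.0759) or 2 (adjusted p = 0.0533) and with lineages taken from clusters (adjusted p = 0.0857). In luminal ER- cells *Sema6a* was at 8.22 and 5.84 CPM in WT and 11.02 and 10.9 CPM in LATS1/2 KO and did not pass (log2 fold change 0.29 ± 0.19, adjusted p = 0.219); the 2 effects differed by 2.50 ± 0.45 (adjusted p = 0.00530). *Sema7a*, a GPI-anchored ligand of plexin C1, was at 0.907 and 1.01 CPM in WT and 4.74 and 4.45 CPM in LATS1/2 KO luminal ER+ cells (log2 fold change 2.18 ± 0.39, adjusted p = 0.0103, and 0.0661 without LATS1/2 KO replicate 1). Its call in luminal ER- cells (adjusted p = 0.0440) was lost without any 1 of the 4 libraries (adjusted p = 0.0523 to 0.293) and with the replicate number as a block (adjusted p = 0.0591).

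**Figure D2:**
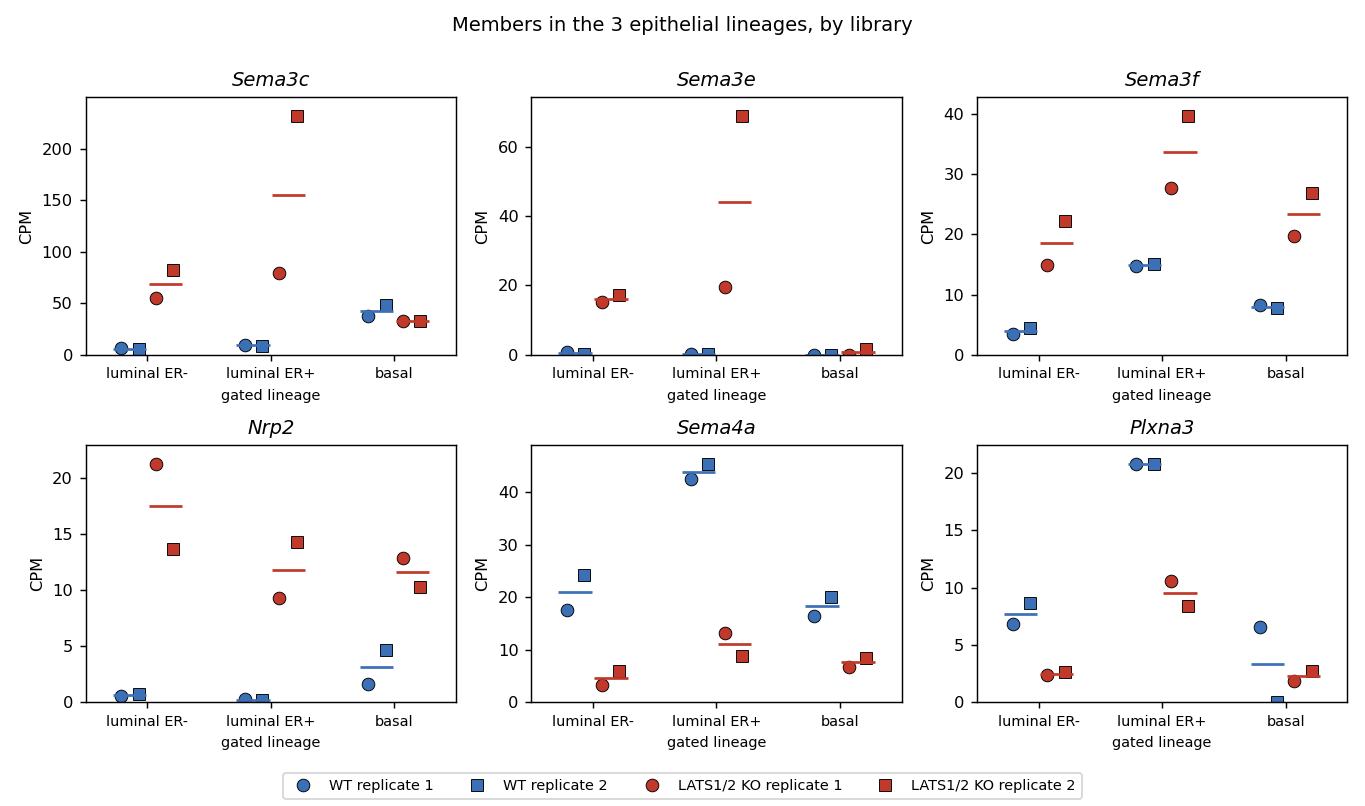
CPM per library of 6 members in luminal ER-, luminal ER+ and basal cells, with bars at the mean of the 2 libraries of a group. *Sema3c*, *Sema3e*, *Sema3f* and *Nrp2* lie higher and *Sema4a* and *Plxna3* lower in both LATS1/2 KO luminal lineages, while basal *Sema3c* stays between 32.6 and 47.9 CPM.

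Among receptors in the same luminal cells, the largest change was in *Nrp2*. This co-receptor of *Sema3c*, *Sema3f* and VEGF-C read 0.574 and 0.725 CPM in WT and 21.3 and 13.7 CPM in LATS1/2 KO luminal ER- cells, and 0.259 and 0.190 CPM in WT against 9.27 and 14.3 CPM in LATS1/2 KO luminal ER+ cells. Every LATS1/2 KO library was above every WT library by a wide margin. Among epithelial cells by cluster, *Nrp2* read 3.55 and 3.48 CPM in cluster 10, which held most LATS1/2 KO luminal ER+ cells. It read 78.9 and 60.6 CPM in cluster 8 and 52.8 and 33.3 CPM in cluster 14. WT cells of cluster 2 read 0.330 and 0.208 CPM. The part of clusters 8 and 14 in the luminal ER+ rise of *Nrp2* was not tested. On the log2 scale *Nrp2* rose by 4.41 ± 0.31 in luminal ER- (adjusted p = 5.38e-05) and by 5.52 ± 0.46 in luminal ER+ cells (adjusted p = 0.00125). *Nrp1* in luminal ER- cells read 0.538 and 0.256 CPM in WT and 2.76 and 2.21 CPM in LATS1/2 KO (2.26 ± 0.40, adjusted p = 0.00254). These levels are near those estimated for free RNA, 0.453, 0.249, 2.50 and 2.86 CPM, and after its subtraction *Nrp1* no longer passed the low-count filter. Summed fibroblast markers moved beside it in these cells, from 29.1 and 41.1 to 293 and 310 CPM. Luminal ER+ cells read 5.77, 11.1, 12.7 and 6.92 CPM with overlapping groups (adjusted p = 0.701). The 2 *Nrp1* effects differed by -2.01 ± 0.58 (adjusted p = 0.0372, and 0.0722 without the mouse as a block).

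Plexins, which transmit the signal, did not move together. *Plxna1* rose in both luminal lineages, from 7.07 and 6.52 to 13.2 and 16.0 CPM in luminal ER- cells (log2 fold change 0.76 ± 0.15, adjusted p = 0.00441) and from 4.66 and 6.13 to 13.8 and 20.3 CPM in luminal ER+ cells (1.54 ± 0.26, adjusted p = 0.00902). *Plxna3* fell in both, from 6.82 and 8.65 to 2.34 and 2.62 CPM (-1.97 ± 0.21, adjusted p = 0.000261) and from 20.7 and 20.8 to 10.6 and 8.41 CPM (-1.16 ± 0.19, adjusted p = 0.00853). Thus related receptors for class 3 and 6 ligands moved in opposite directions in the sums of the same lineages.

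*Plxnb1*, the receptor of *Sema4d*, fell in luminal ER- cells from 25.8 and 28.4 to 18.6 and 20.5 CPM (log2 fold change -0.81 ± 0.10, adjusted p = 0.000643) but not in luminal ER+ cells, where it read 11.7, 8.72, 10.8 and 17.3 CPM (adjusted p = 0.426). The effects differed by 1.14 ± 0.28 (adjusted p = 0.0198). *Plxnb2*, the plexin with the broadest spread over lineages, read 55.3 and 54.6 CPM in WT and 82.6 and 96.3 CPM in LATS1/2 KO luminal ER- cells (log2 fold change 0.36 ± 0.10, adjusted p = 0.0196), and this call was lost without WT replicate 1 (adjusted p = 0.0989) or 2 (adjusted p = 0.118). *Plxdc2*, a plexin domain protein known as a receptor of PEDF, had a log2 fold change of 0.37 ± 0.10 (adjusted p = 0.0126), lost without WT replicate 1 (adjusted p = 0.0593) or 2 (adjusted p = 0.0739). *Plxna2* was at 5, 4, 13 and 26 UMIs in the 4 luminal ER- sums (adjusted p = 0.0148), a call lost without either WT replicate (adjusted p = 0.0923 without 1 and 0.0881 without 2) or LATS1/2 KO replicate 2 (adjusted p = 0.104).

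*Plxnd1*, the receptor of *Sema3e*, stayed low in luminal cells. It read 1.51 and 2.17 CPM in WT and 1.17 and 1.39 CPM in LATS1/2 KO luminal ER- cells (log2 fold change -0.85 ± 0.31, adjusted p = 0.0470), a call lost without any 1 of the 4 libraries (adjusted p = 0.0509 to 0.303). In luminal ER+ cells it gave 4 and 7 UMIs in WT and 11 and 7 UMIs in LATS1/2 KO, or 0.259, 0.442, 2.37 and 3.46 CPM (2.87 ± 0.56, adjusted p = 0.0134). That call was lost without WT replicate 1 (adjusted p = 0.0634) or LATS1/2 KO replicate 1 (adjusted p = 0.0605) or 2 (adjusted p = 0.0693). The effects of the 2 luminal lineages differed by 3.78 ± 0.61 (adjusted p = 0.00324), 1 of 5 members of 25 tested whose effect differed, against 22.6% of 14047 genes.

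**Figure D3:**
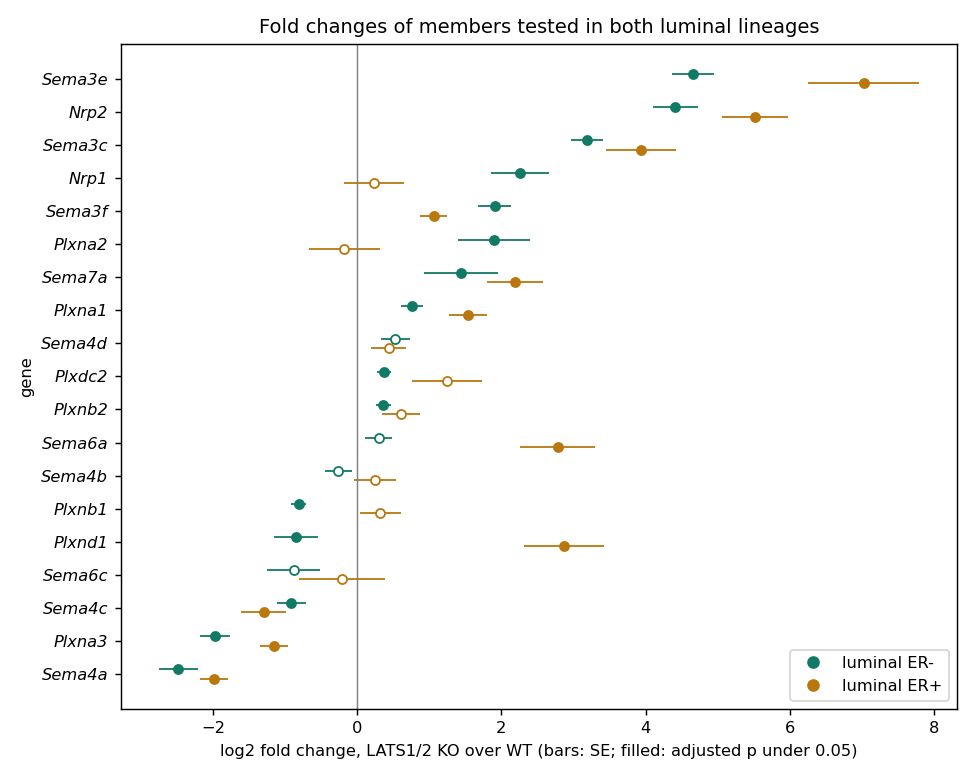
Log2 fold change of LATS1/2 KO over WT with its SE for the 19 members tested in both luminal lineages, filled where the adjusted p was under 0.05. *Sema3e*, *Nrp2* and *Sema3c* lead in both lineages and *Plxna3* and *Sema4a* close the list, while *Sema6a* and *Plxnd1* are far to the right in luminal ER+ cells only.

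The epithelial cells without a clear lineage, which were not tested, held more of the same ligands. *Sema3c* read 11.4 and 12.1 CPM in the WT and 173 and 223 CPM in the LATS1/2 KO libraries, and *Sema3e* 0, 1.01, 62.7 and 71.3 CPM. *Sema4a* went the other way, with 40.3 and 49.3 CPM in WT and 2.02 and 1.60 CPM in LATS1/2 KO. WT replicates supplied only 102 and 93 of these cells.

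Clusters of the epithelial cells placed the ligands further. Among LATS1/2 KO cells, *Sema3c* read 306 and 438 CPM in cluster 14, led by *Crct1* and *Msln*, and 270 and 443 CPM in cluster 8, led by *Ptgs2* and *Cdh2*. It was lower in cluster 3, led by *Ube2c* and *Ankrd1*, at 86.7 and 134 CPM, and lower still in cluster 10, which held most LATS1/2 KO luminal ER+ cells, at 23.7 and 29.9 CPM and in cluster 1, led by *Wfdc3*, at 13.4 and 16.3 CPM. *Sema3e* read 95.1 and 141 CPM in cluster 14, 103 and 153 CPM in cluster 8, 27.5 and 30.1 CPM in cluster 3, 1.42 and 0.696 CPM in cluster 10 and 2.21 and 2.09 CPM in cluster 1. Among these 5 clusters, both ligands were highest in clusters 8 and 14. EYFP was detected in 81.8% and 94.0% of the cells of cluster 14 but in 16.1% and 26.1% of cluster 8, whose median depth was 3026 and 3874 UMIs against 12510 and 14263 in cluster 14. These levels describe cells grouped on their expression and were not tested.

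EYFP marks cells in which Cre was active, so EYFP-positive luminal cells (461 and 547) were compared with luminal cells without an EYFP UMI (2195 and 1832) within each LATS1/2 KO mouse. Of 23 members tested, 7 were higher and 3 lower in EYFP-positive cells, against 37.2% of 12833 genes. Their median log2 fold change was -0.16, with -0.0087 over all genes. The EYFP-positive cells were deeper, with medians of 13650 and 15104 UMIs against 7332 and 7422.5 UMIs. With every cell thinned to 2000 UMIs before EYFP was read, which left 190 and 244 EYFP-positive cells, 5 of 14 tested members were called: *Sema3c*, *Sema3e*, *Nrp2* and *Plxnb2* higher, and *Sema4a* lower. Over all genes the share called with thinned cells was 8.73% of 10193.

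*Sema3c* read 41.8 and 48.2 CPM in EYFP = 0 and 107 and 179 CPM in EYFP-positive cells of replicates 1 and 2. *Sema3e* read 11.6 and 9.36 CPM in EYFP = 0 and 27.7 and 43.0 CPM in EYFP-positive cells. Both ligands were thus higher with EYFP in each mouse, and the EYFP = 0 cells still lay above the WT luminal libraries. Within cluster 3, an alternative added after the data had been seen, their log2 differences shrank from 1.63 to 0.70 and from 1.73 to 0.47, past the test in each case.

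The co-receptor *Nrp2* read 15.2 and 9.76 CPM in EYFP = 0 and 29.8 and 21.2 CPM in EYFP-positive cells (log2 difference 1.03 ± 0.12, adjusted p = 3.69e-07). *Sema3f* read 14.7 and 18.2 CPM in EYFP = 0 and 23.9 and 33.6 CPM in EYFP-positive cells (0.78 ± 0.11, adjusted p = 5.56e-06), and *Plxnb2* 73.1 and 88.8 CPM against 105 and 121 CPM (0.47 ± 0.065, adjusted p = 3.76e-06). *Sema3f* lost its call with thinned cells (adjusted p = 0.613), and *Nrp2* and *Plxnb2* within cluster 3 (adjusted p = 0.117 and 0.421). *Sema3a* gave 9 and 9 UMIs in EYFP = 0 and 18 and 19 UMIs in EYFP-positive cells (2.17 ± 0.45, adjusted p = 0.000525), and *Sema4f* 11 and 12 against 16 and 16 UMIs (1.61 ± 0.45, adjusted p = 0.00658).

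Lower in EYFP-positive cells were *Sema4a*, at 6.01 and 7.84 CPM against 2.68 and 3.26 CPM (-1.24 ± 0.23, adjusted p = 0.000176), *Sema6a*, at 10.6 and 13.2 CPM against 7.06 and 4.89 CPM (-1.04 ± 0.19, adjusted p = 0.000160), and *Sema5a*, at 3.69 and 4.42 CPM against 1.69 and 2.17 CPM (-1.08 ± 0.30, adjusted p = 0.00632). *Sema4a* and *Sema6a* lost their calls within cluster 3 (adjusted p = 0.989 and 0.508), *Sema6a* with thinned cells (adjusted p = 0.233) and *Sema5a* in cells without *Mki67* and *Top2a* UMIs (adjusted p = 0.291). Without the mouse as a block only *Sema3c*, *Sema3e* and *Sema3a* of the 10 were called.

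**Figure D4:**
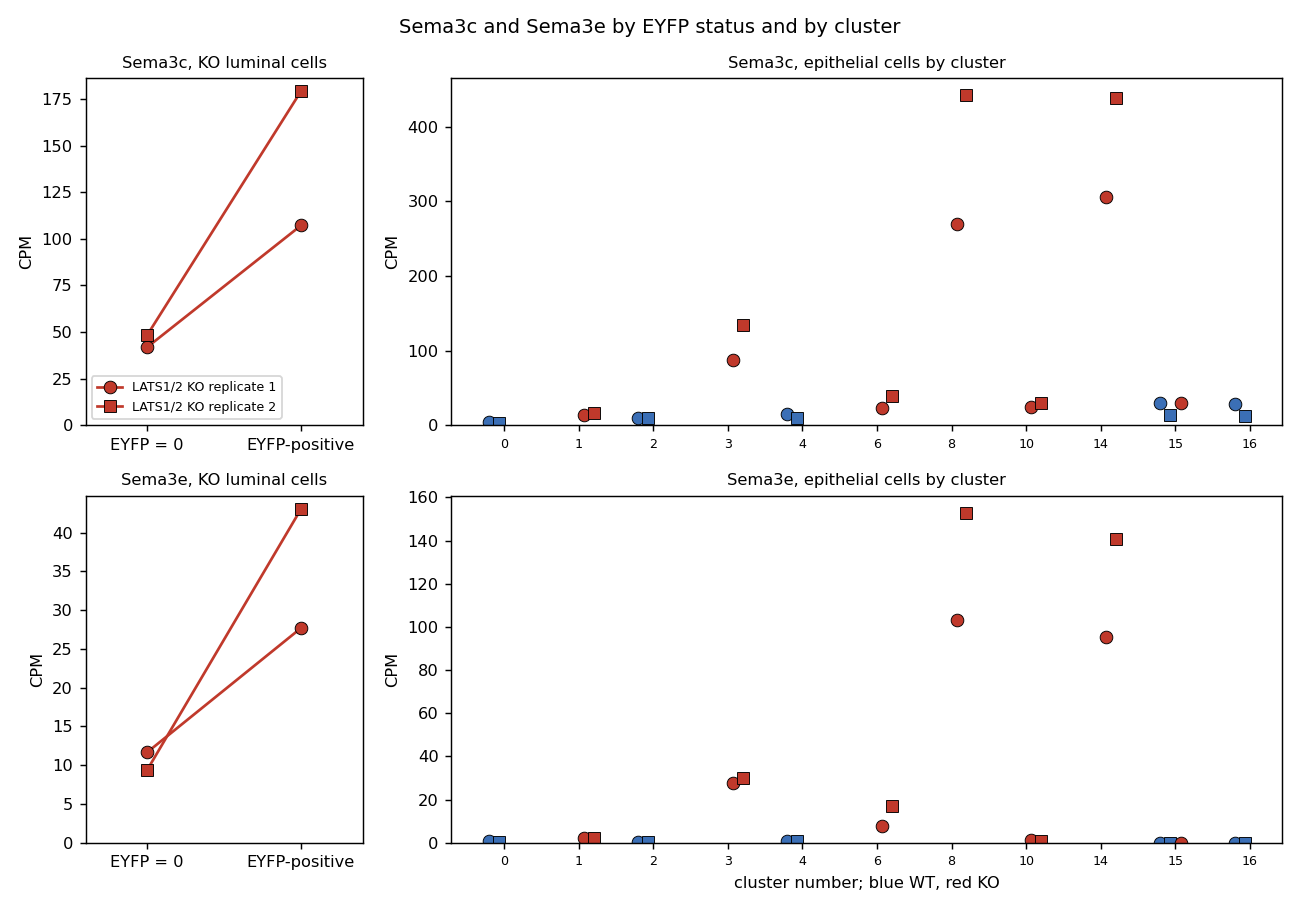
CPM of *Sema3c* and *Sema3e* in EYFP = 0 and EYFP-positive luminal cells of each LATS1/2 KO mouse (left, lines join a mouse) and per library in luminal and lineage-free epithelial cells of each cluster, blue for WT and red for LATS1/2 KO, where at least 2 libraries held 20 or more such cells (right). Levels rise with EYFP in both mice and peak in clusters 8 and 14, where *Sema3c* reads 270 to 443 CPM.

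Basal cells, which are known by *Krt5* and *Krt14* rather than *Krt8*, changed in 4 of 12 tested members, 2 up and 2 down, against 33.4% of 8659 genes. Their median log2 fold change was -0.35, with -0.0028 over all genes. *Plxdc2*, far higher here than in luminal cells, read 168 and 190 CPM in WT and 95.3 and 123 CPM in LATS1/2 KO (-0.82 ± 0.17, adjusted p = 0.00145), opposite to luminal ER- cells by -1.03 ± 0.16 (interaction term, adjusted p = 6.45e-08). This fall lost its call without WT replicate 2 (adjusted p = 0.0593).

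*Sema4a* fell in basal cells from 16.5 and 20.1 CPM to 6.76 and 8.52 CPM (-1.34 ± 0.40, adjusted p = 0.0161), less than in luminal ER- cells by 1.27 ± 0.45 (adjusted p = 0.0254, and 0.142 without the mouse as a block). *Sema3f* rose from 8.24 and 7.73 CPM to 19.7 and 26.9 CPM (1.45 ± 0.43, adjusted p = 0.0152). *Nrp2* gave 1, 3, 21 and 23 UMIs (1.71 ± 0.61, adjusted p = 0.0395, and 0.0880 after subtraction of free RNA). Summed epithelial markers in the basal gate moved beside these rises, from 1679 and 1513 CPM in WT to 3650 and 2953 CPM in LATS1/2 KO, and their part was not tested. None of the 3 calls of *Sema4a*, *Sema3f* and *Nrp2* withstood the loss of a WT library: without WT replicates 1 and 2 in turn the adjusted p was 0.0973 and 0.188 for *Sema4a*, 0.0895 and 0.130 for *Sema3f*, and 0.282 and 0.116 for *Nrp2*. *Sema4a* was also lost without LATS1/2 KO replicate 1 or 2 (adjusted p = 0.121 and 0.0872) and *Sema3f* without LATS1/2 KO replicate 2 (adjusted p = 0.126). *Sema4c*, at 28.01 and 12.4 CPM in WT and 24.0 and 25.1 CPM in LATS1/2 KO basal cells, did not pass (adjusted p = 0.735). Its effect differed from that in luminal ER- cells by 1.25 ± 0.37 (adjusted p = 0.00571, and 0.0685 without the mouse as a block). In all, 4 of 25 members differed between basal and luminal ER- effects, against 23.3% of 13764 genes.

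On the receiving side, endothelial cells held the highest level of 5 of the 11 neuropilins and plexins, which were *Nrp1*, *Nrp2*, *Plxna2*, *Plxna4* and *Plxnd1*. *Nrp2* and the plexins *Plxna2*, *Plxna4* and *Plxnd1* did not pass there. *Nrp2* read 217 and 208 CPM in WT and 243 and 240 CPM in LATS1/2 KO (log2 fold change 0.24 ± 0.23, adjusted p = 0.613), and *Plxnd1* 173 and 168 CPM against 120.7 and 116.8 CPM (-0.47 ± 0.25, adjusted p = 0.283). *Plxna2* read 111, 107, 145 and 133 CPM and *Plxna4* 57.5, 50.8, 38.98 and 52.4 CPM in the same libraries. A receptor for each raised class 3 ligand was thus measured in these cells in both groups.

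Of 14 members tested in endothelial cells 2 rose and 2 fell, against 8.74% of 6947 genes, with medians of 0.32 for the members and 0.02 for all genes. *Nrp1*, co-receptor of *Sema3a* and of VEGF-A, read 712 and 564 CPM in WT and 168 and 200 CPM in LATS1/2 KO. *Sema3g*, an endothelial class 3 ligand, read 173 and 401 CPM in WT and 68.7 and 84.6 CPM in LATS1/2 KO. Both genes were lower in each LATS1/2 KO library than in either WT library. The log2 fold change of *Nrp1* was -1.74 ± 0.23 (adjusted p = 0.000113), and *Sema3g* followed at -1.83 ± 0.31 (adjusted p = 0.00101). These calls of *Nrp1* and *Sema3g* held without any 1 library, and both were lost without the low-count filter, where edgeR called 0 of 15000 genes and 1572 had an unadjusted p under 0.05 (adjusted p = 0.323 and 0.407).

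*Sema3f* rose in endothelial cells from 84.1 and 86.3 CPM to 175 and 159 CPM (1.02 ± 0.27, adjusted p = 0.0255) and *Sema6b* from 35.4 and 30.5 CPM to 89.1 and 80.9 CPM (1.41 ± 0.36, adjusted p = 0.0207). The groups did not overlap, but WT sums rest on 19 and 17 *Sema3f* UMIs and 8 and 6 *Sema6b* UMIs. *Sema3f* lost its call without WT replicate 1 (adjusted p = 0.0646) or 2 (adjusted p = 0.0702) or LATS1/2 KO replicate 1 (adjusted p = 0.140), and *Sema6b* without WT replicate 2 (adjusted p = 0.0934) or LATS1/2 KO replicate 1 (adjusted p = 0.0641). *Sema6a* read 159 and 183 CPM in WT and 103 and 91.9 CPM in LATS1/2 KO without passing (adjusted p = 0.0719).

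The kinds of endothelial cell moved as well. The summed level of 6 arterial markers was 664 and 899 CPM in WT and 401 and 319 CPM in LATS1/2 KO, and 5 of the 6 passed the test as lower. The summed level of 5 capillary markers was 1093 and 924 CPM in WT and 2218 and 2468 CPM in LATS1/2 KO, with 4 of 5 higher. For 5 venous markers it was 1885 and 1905 CPM against 2634 and 2274 CPM, with only *Ackr1* passing, and for 4 lymphatic markers 44.2 and 391 CPM against 55.7 and 94.7 CPM, with WT replicate 2 standing apart through *Prox1* at 279 CPM. These lists were chosen after the data had been seen, and their part in the *Nrp1* and *Sema3g* results was not tested.

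**Figure D5:**
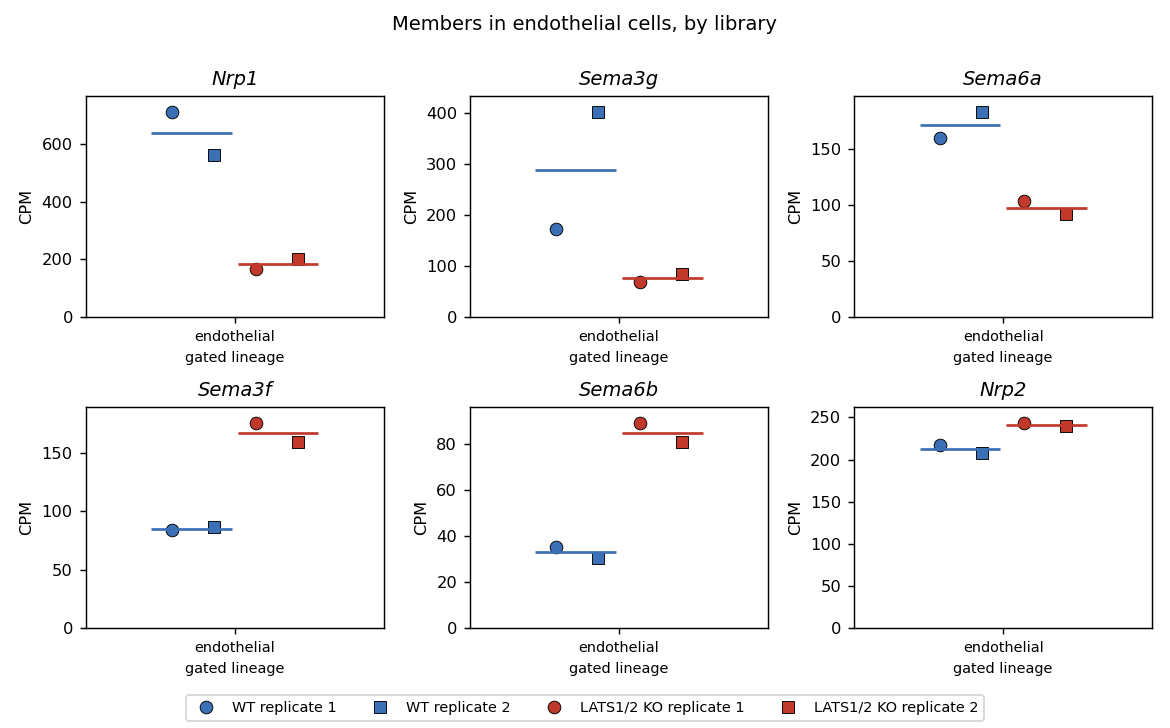
CPM per library of 6 members in endothelial cells, with bars at the mean of the 2 libraries of a group and axes from 0. *Nrp1*, *Sema3g* and *Sema6a* are lower and *Sema3f* and *Sema6b* higher in both LATS1/2 KO libraries, while *Nrp2* spans 208 to 243 CPM.

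Fibroblasts changed in 2 of 15 tested members, against 4.99% of 8404 genes. The medians were -0.10 for the members and 0.08 for all genes. *Sema3d*, a class 3 ligand, gave 9 and 1 UMIs in WT and 1 and 7 UMIs in LATS1/2 KO, or 37.0 and 10.3 CPM against 0.588 and 1.45 CPM (log2 fold change -4.35 ± 0.74, adjusted p = 0.00970). The fall rests on 10 UMIs in WT, 9 of them in replicate 1, and without that library the gene no longer passed the low-count filter. *Sema5a*, a transmembrane ligand with thrombospondin repeats, rose from 28.8 and 41.3 CPM to 103 and 81.9 CPM (1.62 ± 0.40, adjusted p = 0.0454), lost without WT replicate 1 (adjusted p = 0.363) or 2 (adjusted p = 0.0708).

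The fibroblast receptors did not pass. *Nrp1* read 461, 175, 261 and 214 CPM, *Nrp2* 41.1, 114, 42.3 and 41.1 CPM and *Plxdc2* 235, 155, 238 and 285 CPM in the WT and LATS1/2 KO libraries in order. Their groups overlapped, apart from *Plxdc2*, and 1 UMI is worth 10.3 CPM in the smaller WT sum. *Sema3c*, at 57.6, 10.3, 5.29 and 18.9 CPM, did not pass either (adjusted p = 0.301). The fibroblast makeup differed beside these values: 5 myofibroblast markers summed to 1420 and 692 CPM in WT and 8569 and 4029 CPM in LATS1/2 KO, with 4 of 5 passing as higher. For 5 preadipocyte markers the sums were 885 and 557 CPM against 2123 and 1968 CPM, with *Fabp4* and *Lpl* passing as higher, and for 5 adventitial markers 601 and 485 CPM against 316 and 671 CPM, with overlapping groups. These lists were chosen after the data had been seen, and their part in the *Sema3d* and *Sema5a* results was not tested.

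Blood and mural cells were too few in at least 1 library for a test by these gates. With lineages taken from clusters, where lymphocytes numbered 29 to 175 per library, edgeR called 0 of 2 tested members (0 at an unadjusted p under 0.05), against 0.537% of 4282 genes. Macrophages, of which WT libraries held 6 each, read 111 and 60.5 CPM of *Nrp2*, 52.5 and 80.4 CPM of *Plxnd1* and 57.2 and 79.1 CPM of *Plxnb2* in the LATS1/2 KO libraries. Lymphocytes held *Sema4d*, which is known as a leukocyte semaphorin, at 47.1 and 68.2 CPM in WT and 78.8 CPM in LATS1/2 KO replicate 2, the libraries with at least 20 such cells. Perivascular cells of the LATS1/2 KO libraries read 74.9 and 92.9 CPM of *Sema6d* and 64.2 and 78.6 CPM of *Sema5a*.

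Genes around the pathway were counted from a list of 59 co-receptors, transducers, ligand-processing proteases and neuropilin-binding growth factors, of which 58 are in the matrices. In luminal ER- cells 24 rose and 8 fell of 54 tested, in luminal ER+ cells 22 rose and 5 fell of 50, in basal cells 12 rose and 6 fell of 44, in fibroblasts 5 rose and 2 fell of 40, and in endothelial cells 1 rose and 2 fell of 34. In EYFP-positive luminal cells 16 were higher and 14 lower of 53. The shares of all genes called were 60.2%, 31.5%, 33.4%, 4.99% and 8.74% in these lineages in that order, and 37.2% in the EYFP comparison. In luminal ER- and endothelial cells the list was called about as often as all genes.

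In luminal ER- cells the largest rises on this list were *Pcsk6* (log2 fold change 5.90 ± 0.36), a proprotein convertase of the kind that cleaves class 3 semaphorins, *Flt4*, the VEGF-C receptor that pairs with *Nrp2*, at 2 UMIs in WT and 50 in LATS1/2 KO (ratio 28.01, exact counting interval 7.36 to 238), and *Dpysl2* (3.12 ± 0.25), a collapsin response mediator that acts downstream of *Sema3a*. *Rnd1* (-2.08 ± 0.14), a GTPase that binds plexins, *Met* (-1.52 ± 0.09), a plexin B partner kinase, and *Fes* (-1.40 ± 0.14), a kinase bound by plexin A1, fell most. In luminal ER+ cells *Flt4* went from 0 to 37 UMIs, at least 57.9-fold, *Kdr*, the main VEGF-A receptor, from 3 to 22 UMIs (ratio 34.4, interval 10.3 to 180), and *Adamts1*, a secreted protease, by 4.74 ± 0.36. *Vegfb* (-1.09 ± 0.16), *Limk2* (-0.98 ± 0.14) and *Rnd2* (-0.89 ± 0.24) fell most there.

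Basal cells showed the largest listed rises in *Chl1* (4.26 ± 0.41), an adhesion molecule that binds *Nrp1*, *Rras2* (2.58 ± 0.52) and *Furin* (1.43 ± 0.22), another convertase of class 3 semaphorins, and the largest falls in *Itga1* (-3.02 ± 0.51), *Rnd1* (-2.03 ± 0.40) and *Farp2* (-1.94 ± 0.52). *Chl1* was also the leading listed gene in fibroblasts, where it gave 0 UMIs in WT and 1079 in LATS1/2 KO, at least 18.8-fold more, followed by *Ptk7*, from 2 to 500 UMIs (ratio 13.0, interval 3.59 to 108), and *Mical2* (2.86 ± 0.57), while *Pgf* (-2.32 ± 0.58) and *Dpysl2* (-1.60 ± 0.38) fell. In endothelial cells *Vegfc*, the ligand of the *Flt4* and *Nrp2* pair, went from 92.9 and 132 CPM in WT to 12.1 and 10.1 CPM in LATS1/2 KO (-3.26 ± 0.38, adjusted p = 4.33e-05). *Rras*, a GTPase inactivated by plexins, fell by 1.03 on the log2 scale, and *Dpysl3* rose by 1.30 ± 0.36. Between EYFP-positive and EYFP = 0 luminal cells *Flt4* (1.67 ± 0.37), *Mical2* (1.19 ± 0.17) and *Fyn* (0.89 ± 0.17) differed most upwards, and *Farp2* (-1.10 ± 0.23), *Fes* (-0.97 ± 0.21) and *Vegfa* (-0.87 ± 0.11) downwards.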

How the data were processed

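The authors deposited raw UMI counts per gene and cell for 4 libraries of the 10x 3' v3 assay. The submitters' processing notes name Cell Ranger 3.1.0 and mm10, and the matrix headers name Cell Ranger 6.1.2; which applies was not settled. Cells with over 500 genes and under 20% mitochondrial UMIs were kept (18200 of 20324 barcodes). Lineages were set by marker genes, with a scoring rule chosen after the files had been seen, and 3.86% of kept cells stayed ungated. Each cluster took the lineage of most of its gated cells, and 96.5% of 16212 gated cells lay in a cluster of their lineage. No cluster was perivascular. That share is partly fixed by the rule and does not check the gates. Doublets were not removed in the main results, and removal of the highest Scrublet scores (scanpy 1.11.5) was an alternative. The 18 clusters came from Seurat 5.3.0 with sctransform 0.4.2. Counts were summed per library and lineage and tested in edgeR 4.0.16 (TMM, filterByExpr, quasi-likelihood test, Benjamini-Hochberg adjusted p under 0.05 over all genes), in R 4.3.3. Interactions and the EYFP comparison had the mouse as a block. Each library is 1 mouse, 2 per group. The test combines the spread of a gene between its sums with a spread estimated over all genes. With so few mice the p-values, most of all those of the blocked comparisons, rest in large part on that pooled spread. CPM are UMIs scaled to a common total over the summed cells, without the TMM factors that enter the fold changes. Whether groups lay apart was judged on CPM. Counting intervals and floors (3 UMIs over a group) cover counting error only. The test was run on simulated counts with strong changes in a small set of well-counted genes. That run does not check calls on few UMIs or with most genes changed. Alternatives were DESeq2 1.42.0, RLE size factors, no low-count filter, a 10% mitochondrial limit, cluster lineages, thinned sums or cells, subtraction of free RNA, the replicate number as a block and leaving out each library.

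Members, the signalling list and the tests were chosen with earlier results of these data known. Members are given in full where they passed the test with groups apart, or where their leading lineage reached 20 CPM and 3 times its estimated free RNA. From the signalling list, the 3 called genes with the largest change in each direction were named. Perivascular cells, macrophages and lymphocytes, with under 20 gated cells in a library, were not tested in the main results. Promoter windows came from the RefSeq table (GRCm38.p6) and gene positions from GENCODE M21.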

Additional observations from a re-analysis of the deposited data

Results flagged for a closer look

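For 9 results, the effect of LATS1/2 KO against WT differed between lineages by a test of the difference itself (interaction term, edgeR quasi-likelihood test with the mouse as a block, Benjamini-Hochberg adjusted p). Between luminal ER+ and luminal ER- cells, the difference in log2 fold change was 3.78 ± 0.61 for *Plxnd1* (adjusted p = 0.00324), 2.50 ± 0.45 for *Sema6a* (adjusted p = 0.00530), 1.14 ± 0.28 for *Plxnb1* (adjusted p = 0.0198), -0.80 ± 0.22 for *Sema3f* (adjusted p = 0.0288) and -2.01 ± 0.58 for *Nrp1* (adjusted p = 0.0372). *Plxnd1* and *Sema6a* rest on few UMIs in luminal ER+ cells, 11 and 7 for *Plxnd1* and 15 and 7 for *Sema6a* in the LATS1/2 KO libraries, and *Nrp1* in luminal ER- cells was near its estimated free RNA. Between basal and luminal ER- cells, it was -3.56 ± 0.31 for *Sema3c* (adjusted p = 2.71e-20), -1.03 ± 0.16 for *Plxdc2* (adjusted p = 6.45e-08), 1.25 ± 0.37 for *Sema4c* (adjusted p = 0.00571) and 1.27 ± 0.45 for *Sema4a* (adjusted p = 0.0254). The summed basal markers in luminal ER- cells, 60.8 and 47.7 CPM in WT and 1459 and 1063 CPM in LATS1/2 KO, moved beside these values, and their part was not tested.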

How the results depend on the processing

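Of 641 alternative values of 58 member results, all 641 kept their direction, 0 reversed and 89 lost their call. The other 552 kept it or, with 1 mouse in the EYFP comparison, carried no test. Where a member did not pass the low-count filter of an alternative, no value was given and no lost call was counted. Counts of called members in luminal ER- (18) and luminal ER+ cells (11) stayed within 1.5 times under every alternative run. The basal count of 4 became 2 with thinned sums and 1 with DESeq2, and 0 (without WT replicate 2, with 4 at an unadjusted edgeR p under 0.05) to 2 without 1 library. The fibroblast count of 2 became 0 with a 10% mitochondrial limit, with the highest Scrublet scores removed and with thinned sums (2, 3 and 0 at an unadjusted edgeR p under 0.05), 1 after subtraction of free RNA, 1 with DESeq2, and 0 to 2 without 1 library. The endothelial count of 4 became 2 with thinned sums, 0 without the low-count filter (8 at an unadjusted p), 2 with DESeq2, and 2 to 4 without 1 library. The EYFP count of 10 became 5 with thinned cells, 16 with lineage-free luminal cells added, 3 within cluster 3 and 6 with DESeq2. The share of all genes called moved as well. In these settings, in the same order, it was 30.4%, 15.5% and 13.1% to 31.4% in basal cells (33.4% in the main test), 4.46%, 4.44%, 12.2%, 5.97%, 4.34% and 0.224% to 13.7% in fibroblasts (4.99%), 9.71%, 0%, 3.61% and 5.90% to 9.27% in endothelial cells (8.74%), and 8.73%, 39%, 4.3% and 11.1% in the EYFP comparison (37.2%). The causes were not tested. Where a library was left out, the lone sample of its group was assumed to vary like the others, and with 1 mouse the EYFP comparison gave values without a test. The WT sums of 23 to 58 fibroblasts and 35 to 41 endothelial cells limit those comparisons by depth.

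Replicate numbers name mice and do not pair WT with LATS1/2 KO. Deviations of same-numbered libraries correlated at -0.015 to 0.050 by lineage. With the replicate number as a block the counts were 18, 11, 5, 2 and 4 in luminal ER-, luminal ER+, basal, fibroblast and endothelial cells. The shares of all genes called were then 60.3%, 29.5%, 36.1%, 9.19% and 7.27%. Without the mouse as a block, 3 members were called in the EYFP comparison, 3 in the luminal ER+ against luminal ER- interaction and 3 in the basal one, against 10, 5 and 4. The share of all genes called fell as well, from 37.2% to 3.63%, from 22.6% to 16.4% and from 23.3% to 16.3%.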

Other observations

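Adipocyte-gated cells came from LATS1/2 KO replicate 2 alone (28 cells), where *Nrp1* read 109 CPM, *Sema6b* 31.5 CPM and *Sema4b* 28.03 CPM. Among genes of the signalling list, 22 of 55 differed between the luminal ER+ and luminal ER- effects, against 22.6% of 14047 genes, led by *Kdr* (3.54 ± 1.02 on the log2 scale) and, in the other direction, *Pcsk6* (-3.55 ± 0.48), and 16 of 54 between the basal and luminal ER- effects, against 23.3% of 13764 genes, led by *Chl1* (4.49 ± 0.54) and *Itga1* (-4.25 ± 0.91).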
